A study of Homo sapiens with 21 samples.

Results

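The genes for SR proteins and hnRNPs were read across 14 ChIP-seq peak lists (chromatin immunoprecipitation with sequencing) from CAMA1 cells. A gene was included if it is protein-coding, lies on chromosomes 1 to 22 or X, and has a symbol that starts with SRSF and a number or with HNRNP. This gave 38 of 19974 protein-coding genes, 12 SR protein genes (SRSF1 to SRSF12) and 26 hnRNP genes. A gene was scored in a list if a peak touched the stretch of 1 kb to each side of either annotated end, and it was said to carry a target if both lists of that target scored it. Genes with H3K4me3 in both lists are called marked, and unless another group is named the other 13231 marked genes stand beside the members.

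CAMA1, a human breast cancer line, is given in the labels as oestrogen receptor-positive with amplified FGFR1. All cells were of a passage under 10 and had been kept without estradiol for 48 h. Untransfected cells were profiled for FGFR1 (a growth factor receptor and tyrosine kinase), H3K4me3 (a histone mark of promoters), H3K27ac (a histone mark of active regulatory DNA), Pol II S5P (RNA polymerase II phosphorylated on serine 5, the form that has begun transcription) and FOXA1 (a forkhead transcription factor that opens chromatin). FGFR1 was also profiled in cells collected 72 h after transfection with siNT, a non-targeting siRNA, or siFOXA1, an siRNA to FOXA1. Each of these 7 groups had 2 lists, and the labels do not tell whether these are separate cultures or repeat preparations, so the spread within a group may be only technical. FOXA1 in the transfected cells was not analysed here.

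Splicing joins exons of a nascent transcript, and both protein families steer where it happens. SR proteins carry RNA recognition motifs and a tail rich in arginine and serine, bind enhancer sequences in exons and recruit the splicing machinery. The hnRNPs coat nascent transcripts, often oppose SR proteins at splice sites, and also act in mRNA export, stability and translation. Genes of both families are transcribed at high levels in most growing cells, and many control their own mRNA through splicing.

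The promoters below show the genes at either extreme of the FGFR1 lists. HNRNPAB, SRSF3 and SRSF7 had the highest mean percentile of FGFR1 enrichment within the untransfected lists, and HNRNPC and HNRNPA3 were the marked genes that carried Pol II S5P in both lists but had no FGFR1 peak in any of the 6 FGFR1 lists. Each runs 5′ to 3′ from 250 bases before to 50 bases after the start site, from RefSeq (build GRCh38.p14, whose primary assembly is that of hg38), with the gene's strand. Capitals mark exact matches, on either strand, to 1 of 7 promoter motifs, which are the FOXA forkhead motif (TGTTTAC), the ETS motif (CCGGAAG), the CCAAT box (CCAAT), the GC box (GGGCGG), the TATA box (TATAAA), the cAMP response element (TGACGTCA) and the E-box (CACGTG). The windows are chr5:178204283-178204582 (+) for HNRNPAB, chr6:36594112-36594411 (+) for SRSF3, chr2:38751445-38751744 (-) for SRSF7, chr14:21269393-21269692 (-) for HNRNPC and chr2:177212544-177212843 (+) for HNRNPA3.
HNRNPAB: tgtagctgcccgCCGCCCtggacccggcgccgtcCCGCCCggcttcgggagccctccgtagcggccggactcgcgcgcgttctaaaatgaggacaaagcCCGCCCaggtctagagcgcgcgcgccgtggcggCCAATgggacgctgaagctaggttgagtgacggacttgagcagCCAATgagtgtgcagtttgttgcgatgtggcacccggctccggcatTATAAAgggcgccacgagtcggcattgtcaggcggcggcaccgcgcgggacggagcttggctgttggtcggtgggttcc
SRSF3: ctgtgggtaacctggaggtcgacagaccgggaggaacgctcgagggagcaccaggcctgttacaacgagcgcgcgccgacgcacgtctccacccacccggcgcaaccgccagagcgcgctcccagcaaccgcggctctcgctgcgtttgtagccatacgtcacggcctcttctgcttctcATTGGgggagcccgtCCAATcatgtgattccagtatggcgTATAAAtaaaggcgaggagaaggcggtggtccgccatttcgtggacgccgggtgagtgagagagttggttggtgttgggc
SRSF7: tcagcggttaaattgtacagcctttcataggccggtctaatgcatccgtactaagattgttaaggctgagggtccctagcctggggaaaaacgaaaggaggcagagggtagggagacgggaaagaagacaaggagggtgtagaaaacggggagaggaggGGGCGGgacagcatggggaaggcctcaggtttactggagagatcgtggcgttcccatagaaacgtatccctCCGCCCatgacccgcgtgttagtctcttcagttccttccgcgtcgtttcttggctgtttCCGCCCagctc
HNRNPC: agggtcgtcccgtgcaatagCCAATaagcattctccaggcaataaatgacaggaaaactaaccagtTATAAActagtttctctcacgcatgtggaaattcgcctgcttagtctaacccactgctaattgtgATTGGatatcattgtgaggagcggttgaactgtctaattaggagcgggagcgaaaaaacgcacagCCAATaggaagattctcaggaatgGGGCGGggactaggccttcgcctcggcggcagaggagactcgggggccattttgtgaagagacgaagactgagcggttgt
HNRNPA3: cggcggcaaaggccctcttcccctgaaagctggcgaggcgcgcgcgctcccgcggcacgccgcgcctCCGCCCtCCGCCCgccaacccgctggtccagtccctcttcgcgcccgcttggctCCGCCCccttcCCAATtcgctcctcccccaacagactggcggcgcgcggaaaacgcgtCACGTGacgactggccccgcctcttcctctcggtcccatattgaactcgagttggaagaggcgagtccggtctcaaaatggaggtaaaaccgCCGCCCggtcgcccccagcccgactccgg

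HNRNPAB held 2 CCAAT boxes, 3 GC boxes and a TATA box, and SRSF3 held 2 CCAAT boxes and a TATA box. SRSF7 held 3 GC boxes and none of the other motifs. HNRNPC held 3 CCAAT boxes, 1 GC box and a TATA box, and HNRNPA3 held 1 CCAAT box, 4 GC boxes and an E-box. Exact matches to CCAAT and TATAAA were thus found in promoters with and without FGFR1 peaks. Matches were counted anywhere in the window, and the TATAAA of HNRNPC lies much further upstream than those of HNRNPAB and SRSF3. No base of these windows was shared by matches to different motifs. The FGFR1 peaks of untransfected lists 1 and 2 covered 300 and 300 bases of the HNRNPAB window, 258 and 300 of the SRSF3 window and 72 and 95 of the SRSF7 window, where the peak lay mostly downstream. HNRNPH1 also had Pol II S5P in both lists and no FGFR1 peak in untransfected cells, but the window of its annotated start held no Pol II S5P peak base and is not shown.

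Over the 31 marked members with a promoter in the table, motifs were counted beside all 15812 promoters of the table and beside the 10805 promoters of other marked genes. The CCAAT box was in 15 of 31 (48.4%), against 36.3% of all promoters and 36.4% of those of other marked genes. The TATA box was in 5 (16.1%), against 9.64% and 5.62%, and the E-box in 7 (22.6%), against 8.87% and 10.4%. The GC box in 21 (67.7%) and the ETS motif in 5 (16.1%) were above all promoters (58.5% and 14.2%) and below other marked genes (71.3% and 18.8%). Neither the FOXA forkhead motif nor the cAMP response element was in any of the 31, against 2.62% and 2.59% of all promoters and 2.19% and 3.24% of those of other marked genes. The ETS motif was in 4 of the 14 members that carried FGFR1 in both untransfected lists (HNRNPF, SRSF5, HNRNPLL and HNRNPD) and in 1 of the other 17 (SRSF4). By the same split the CCAAT box was in 8 and 7, the GC box in 10 and 11, the TATA box in 3 and 2, and the E-box in 3 and 4. The split was not made for other marked genes. Median GC content was 64.0% in the 31 members, 62.7% in all promoters and 65.7% in other marked genes. SRSF2, HNRNPA1, HNRNPCL3 and HNRNPA1L3 are named only.

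Most members had a marked promoter. H3K4me3 was in both lists at 33 of 38 members, all 12 SR protein genes and 21 of 26 hnRNP genes, against 66.4% of other protein-coding genes. HNRNPCL1, HNRNPCL2, HNRNPCL3, HNRNPCL4 and HNRNPA1L3, which are close relatives of HNRNPC and HNRNPA1, had no peak in any of the 14 lists. Whether reads can be placed in such near-identical copies was not tested. H3K27ac was in both lists at 32 of the 33 marked members, against 95.2% of other marked genes, and the exception was SRSF12, with an enrichment of 4.55 in list 1 and no peak in list 2. Enrichment here is the authors' fold enrichment at the summit of the strongest peak at the gene's ends. It was read as the ratio of fragments plus 1 to the background of the list plus 1.

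The members' H3K4me3 signal was as high as that of other marked genes but broader. Enrichment ran from 34.7 to 108 with a median of 92.0 in list 1, where other marked genes had a median of 92.0, and from 40.0 to 113 with a median of 94.1 in list 2, against 92.7. These values lie near the highest in either list (110 and 114, at 400 fragments), which leaves little room for a difference. The widest H3K4me3 peak at a member had a median width of 3544 bp in list 1 and 3509 bp in list 2, against 2434 and 2370 bp at other marked genes. SRSF12 was lowest in both lists (34.7 and 40.0), and HNRNPAB was highest (108 and 113). H3K27ac had medians of 37.6 and 42.5 at members with a peak and 30.4 and 32.4 at other marked genes.

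**Figure D1:**
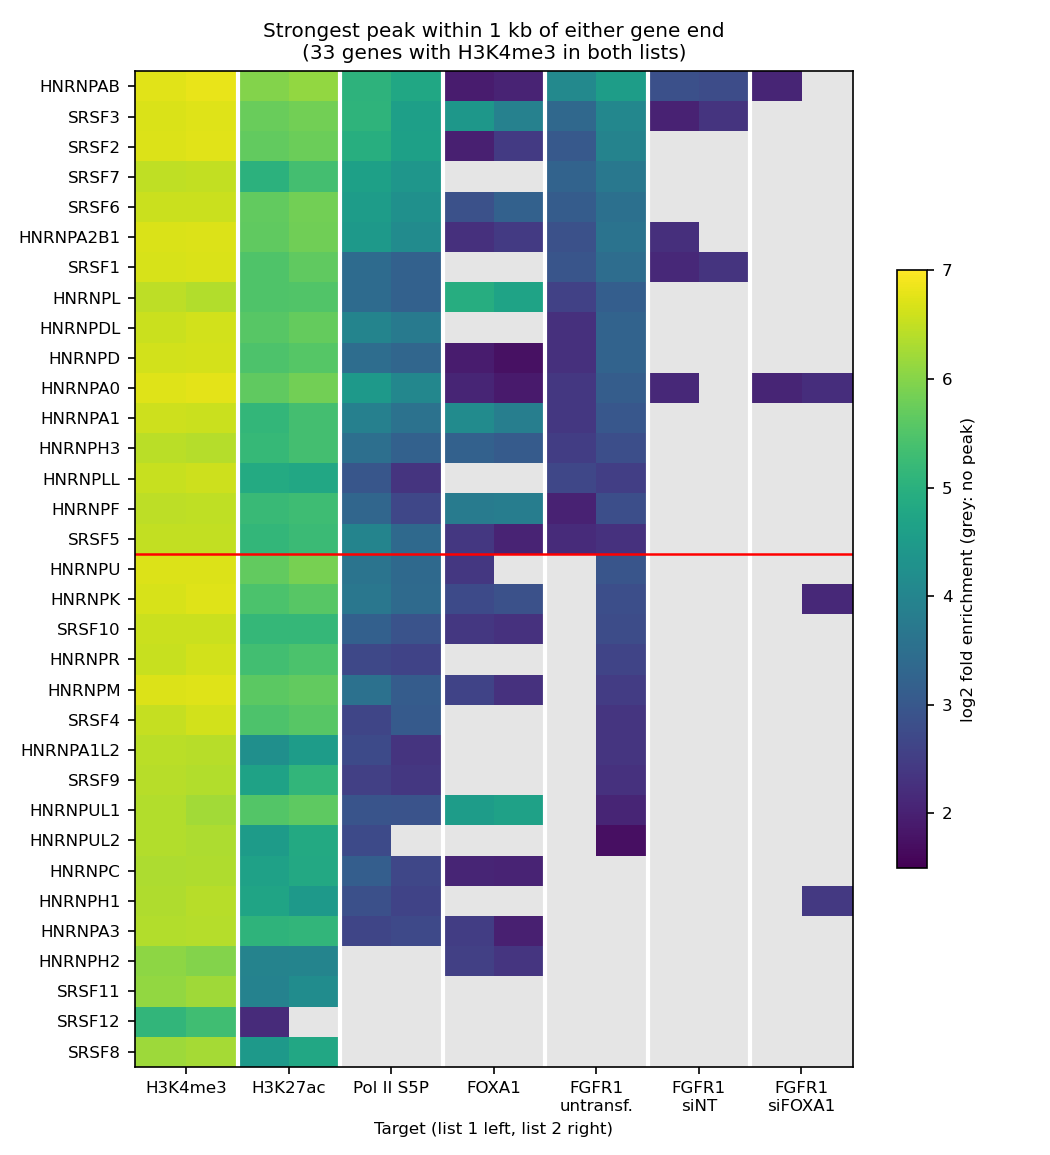
Strongest peak at each of the 33 marked SR protein and hnRNP genes (rows) in each of the 14 lists (columns, list 1 left and list 2 right of each target), as log2 fold enrichment, with grey for no peak. The red line separates the 16 genes with FGFR1 in both untransfected lists (above) from the other 17. H3K4me3 and H3K27ac fill nearly every row, while FGFR1 of transfected cells fills few.

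Pol II S5P was at most marked members and FGFR1 at about 1 in 2. Pol II S5P was in both lists at 28 of 33 (84.8% against 58.2% of other marked genes), 9 of 12 SR protein genes and 19 of 21 hnRNP genes. FGFR1 was in both untransfected lists at 16 of 33 (48.5% against 29.7%), 6 of 12 SR protein genes and 10 of 21 hnRNP genes. FOXA1 was in both lists at 19 of 33 (57.6% against 44.1%), 5 of 12 SR protein genes and 14 of 21 hnRNP genes. The untransfected FGFR1 lists were uneven, since list 1 scored 16 marked members (29.8% of other marked genes) and list 2 scored 26 (61.8%). All 16 of list 1 were also in list 2, and with list 2 alone the count is 26.

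Among genes with Pol II S5P, the difference in FGFR1 was smaller than among all marked genes. Of the 28 members with Pol II S5P, 16 carried FGFR1, against 47.2% of the other genes with H3K4me3 and Pol II S5P. Marked genes with Pol II S5P were also split into 4 equal bins by their mean percentile in the Pol II S5P lists, a split chosen after seeing the data. From the lowest bin to the highest, FGFR1 was at 1 of 6, 1 of 5, 4 of 5 and 10 of 12 members, against 19.3%, 33.9%, 52.2% and 83.5% of the other genes of each bin. The highest bin, which holds 12 of the 28 members, thus had FGFR1 at 83.3% of members and 83.5% of other genes. The members' place among the genes richest in Pol II S5P therefore moves with their FGFR1 count, and its part in that count was not tested.

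**Figure D2:**
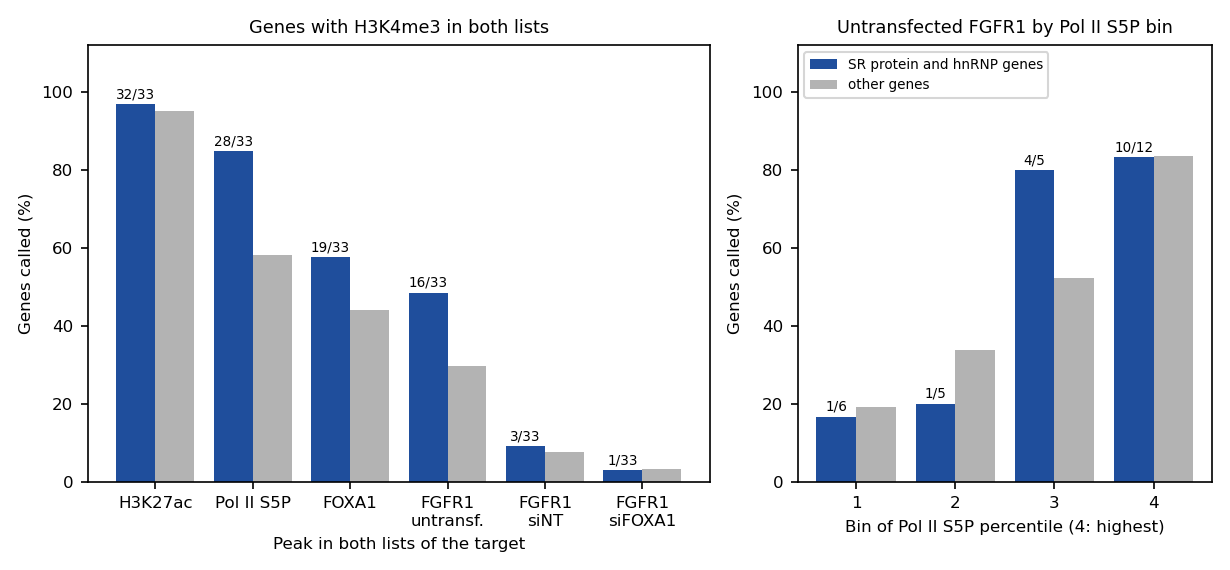
Share of genes called (%, bars from 0), for the SR protein and hnRNP genes (blue, with counts) and for the other genes (grey). The left panel gives genes with a peak in both lists of each target among marked genes, and the right panel gives untransfected FGFR1 by bin of Pol II S5P, from 1 (lowest) to 4 (highest). The blue bar is taller for Pol II S5P (28/33), FOXA1 (19/33) and untransfected FGFR1 (16/33). By bin it is shorter in bins 1 (1/6) and 2 (1/5), taller in bin 3 (4/5) and level with the grey bar in bin 4 (10/12).

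Of the SR protein genes, 6 carried FGFR1 in both untransfected lists, and SRSF3 led them. SRSF3 (SRp20), the smallest SR protein and also an mRNA export factor, had FGFR1 enrichments of 10.2 and 16.4 in lists 1 and 2, from 44 and 73 fragments at the summit. The list 1 peak spanned chr6:36594154-36594582, the summits lay 27 and 28 bp downstream of the start site, and its Pol II S5P enrichments of 33.6 and 24.2 ranked 34 among the 7723 marked genes with Pol II S5P. SRSF7 (9G8), which couples splicing to mRNA export, had FGFR1 at 9.55 and 13.1 (chr2:38751167-38751516 in list 1), with summits 155 and 169 bp downstream of the start site. SRSF2 (SC35), a splicing factor mutated in myeloid neoplasms, had 8.19 and 15.5, and its Pol II S5P stood at 31.1 and 24.6. The ends of MFSD11 and METTL23 lie within 1 kb of those of SRSF2, so its peaks cannot be assigned to a single gene. SRSF6 (SRp55), a regulator of exon inclusion, had FGFR1 at 8.64 and 11.5, with summits 18 and 9 bp downstream of the start site.

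SRSF1 (SF2/ASF), the founding SR protein and a driver of transformation when overexpressed in breast cells, carried FGFR1 at both of its ends. Its strongest peaks, at 7.73 and 11.1 (chr17:57987916-57988590 in list 1), lay 641 and 671 bp beyond the 3′ end of the gene, where the end of VEZF1 also lies within 1 kb. At its own start site the enrichment was 5.69 and 9.33, and Pol II S5P there was 10.7 and 9.23. SRSF5 (SRp40) was the lowest of the 6, with FGFR1 at 4.55 and 4.89 and summits 116 and 104 bp upstream of the start site, although its Pol II S5P reached 15.7 and 10.4. Of the other SR protein genes, SRSF4, SRSF9 and SRSF10 had FGFR1 in list 2 alone (5.11, 4.89 and 6.88), and SRSF8, SRSF11 and SRSF12 had no FGFR1 peak in any list. Those last 3 also lacked Pol II S5P within 1 kb of an annotated end. For SRSF11 the start site of the promoter table lies 15684 bp inside the listed gene, and Pol II S5P was found there at 5.59 and 5.22, with no FGFR1 peak.

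Among the hnRNP genes, HNRNPAB had the highest FGFR1 enrichment of all members. HNRNPAB, which encodes an RNA-binding protein related to hnRNP A1 and hnRNP D, had 17.1 and 23.5, from 74 and 105 fragments, and ranked 32 among 3941 marked genes with FGFR1 in both lists. In list 1 the peak spanned chr5:178204199-178204770, with its summit 27 bp downstream of the start site, and Pol II S5P stood at 33.3 and 27.5, rank 22 of 7723. HNRNPA2B1, whose products carry RNAs to their place in the cell and bind methylated adenosine sites, had FGFR1 at 7.28 and 12. An end of CBX3 lies within 1 kb, so these peaks cannot be assigned to a single gene. HNRNPA1, the best known splicing repressor of the family, had 5.23 and 7.99, and an end of CBX5 lies within 1 kb. HNRNPA0, which binds AU-rich mRNAs in stress responses, had 5.23 and 8.66 with summits 441 and 475 bp upstream of its start site, away from its Pol II S5P summits 21 and 48 bp downstream. A3 and A1L2, the other marked relatives of this group, differed: HNRNPA3 had no FGFR1 in any list, and HNRNPA1L2 had 5.11 in list 2 alone.

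Of the hnRNPs that bind AU-rich elements, CA repeats or G tracts, 6 more carried FGFR1, all below HNRNPAB and HNRNPA2B1 in both lists. HNRNPD (AUF1), a regulator of mRNA decay, and its relative HNRNPDL each had 4.78 and 9.55 in lists 1 and 2. The HNRNPD summits lay 326 and 302 bp upstream of the start site, while the HNRNPDL summits lay 794 and 736 bp downstream, and the end of ENOPH1 is within 1 kb of that gene. HNRNPL, which binds CA repeats, had 5.91 and 8.88. HNRNPLL, its relative that controls splicing of the lymphocyte gene PTPRC, had 6.37 and 5.77 and was the only one of the 16 that was lower in list 2. HNRNPH3 and HNRNPF, which bind G tracts, had 5.69 and 7.11, and 4.09 and 7.11. HNRNPF was thus the weakest of the 16 in list 1, at 17 fragments, where the lowest peak of that list had 14. HNRNPH1 and HNRNPH2, relatives of HNRNPH3 and HNRNPF, had no FGFR1 peak in either untransfected list.

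HNRNPC and HNRNPA3 carried Pol II S5P without an FGFR1 peak in any list. HNRNPC, which binds uridine runs in nascent transcripts, had Pol II S5P at 8.90 and 6.33, with summits 34 and 15 bp downstream of the start site. HNRNPA3 had Pol II S5P at 6.26 and 6.56. Both were well under the Pol II S5P of the strongest FGFR1 members but close to that of HNRNPLL (7.80 and 5.0), which carried FGFR1. H3K4me3 was 80.0 and 81.4 at HNRNPC and 83.0 and 83.7 at HNRNPA3, and H3K27ac was 25.1 and 28.3, and 34 and 34.8. List 2 alone scored FGFR1 at 10 marked members, all but HNRNPUL2 with Pol II S5P in both lists, and their FGFR1 enrichment ran from 3.33 to 7.77. HNRNPU, the nuclear matrix protein SAF-A, was highest of these at 7.77, followed by HNRNPK, which binds cytidine runs, at 7.11, while HNRNPUL2 was lowest.

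Over the 16 members with FGFR1, enrichment in list 2 was higher at 15, with a median ratio of list 2 to list 1 of 1.52. Other marked genes with FGFR1 behaved alike, with 93% higher in list 2 and a median ratio of 1.41. In each of the 16, the strongest peaks of the 2 lists overlapped, and their summits were a median of 21 bp apart, against 96.8% and 49 bp for other genes. These peaks overlapped Pol II S5P, H3K4me3 and H3K27ac peaks of both lists at all 16, against 89.2%, 99.7% and 99.6% of other genes, and overlapped FOXA1 peaks at 8, against 36.9%. The median distance from FGFR1 summit to the nearest Pol II S5P summit was 60 bp, against 98 bp. It was shortest at SRSF3 and SRSF6 (7 bp each) and longest at HNRNPA0 (492 bp). Another protein-coding gene end lay within 1 kb at 5 of the 16 and at 9 of the 17 marked members without FGFR1 in both lists. Such neighbours were not counted for other marked genes.

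Members with more Pol II S5P had more FGFR1. Across the 16 members, mean FGFR1 enrichment and mean Pol II S5P enrichment had a Spearman rho of 0.79, and across 3632 other genes rho was 0.40. This is a description over genes read from the same libraries, which are not independent replicates, and both enrichments rise where more fragments pile up at a promoter. HNRNPAB, SRSF3, SRSF2, SRSF7 and SRSF6 were high in both. HNRNPA0 went against the pattern, with Pol II S5P of 22.1 and 16.4 beside an FGFR1 enrichment under that of SRSF1, whose Pol II S5P was lower. Members with FGFR1 had median Pol II S5P enrichments of 15.8 and 12.8, and marked members without FGFR1 in both lists had 7.14 and 7.0 where a peak was called. Their H3K27ac medians were 44.8 and 48.8 against 26.1 and 34.8, and their median H3K4me3 widths 4724 and 4497 bp against 3327 and 3337 bp. Other marked genes were not split by FGFR1 for these medians, so the gaps are not known to be particular to the members.

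**Figure D3:**
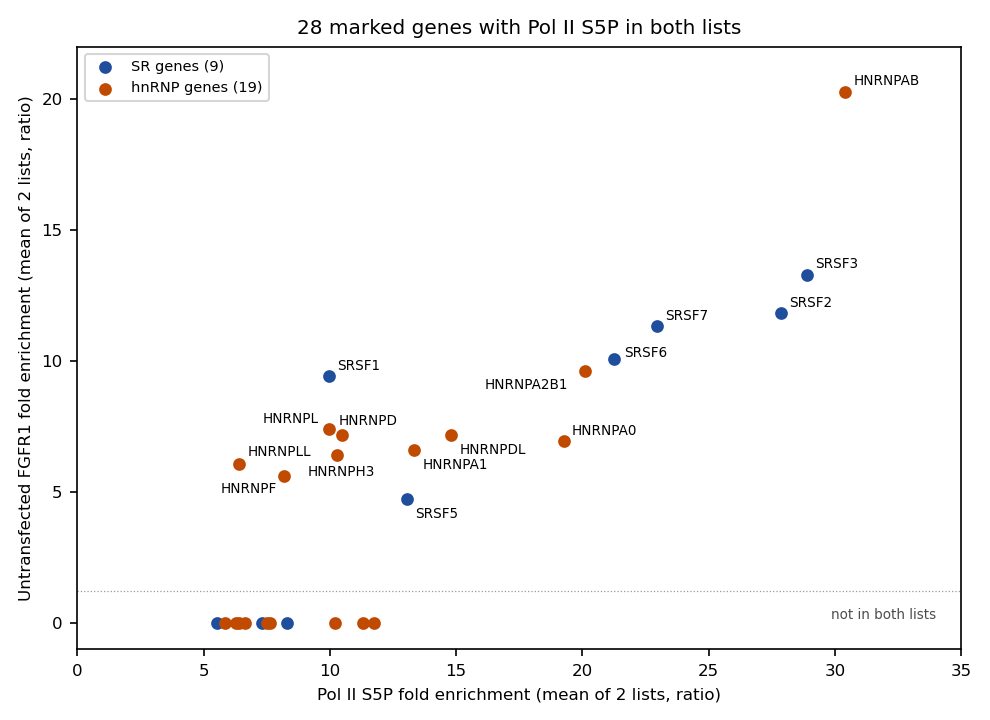
Mean untransfected FGFR1 fold enrichment (y, ratio) against mean Pol II S5P fold enrichment (x, ratio) for the 28 marked members with Pol II S5P in both lists, SR protein genes in blue and hnRNP genes in orange. The 12 genes without FGFR1 in both lists are drawn at 0. HNRNPAB is at the upper right, and the genes at 0 have less Pol II S5P than SRSF5, though HNRNPK and HNRNPU at 0 have more than several genes with FGFR1.

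The median FGFR1 and Pol II S5P summits lay just downstream of the start sites, with a wide spread. Distances to start sites were measured for members only, so this layout is not known to be particular to them. Among members whose strongest peak lay within 2000 bp of the start site, the median FGFR1 summit was at 18 bp (13 members, list 1) and 28 bp (23 members, list 2), and the median Pol II S5P summit at 36.5 and 48 bp. FGFR1 summits ran from -441 to 794 bp in list 1 and from -475 to 1358 bp in list 2. Within 250 bp to either side lay 8 of 13 and 15 of 23 FGFR1 summits, and 17 of 26 and 20 of 25 Pol II S5P summits. The median FOXA1 summit was on the other side, at -105 and -115 bp over 13 members each. H3K27ac summits had medians of 245 and 222 bp and H3K4me3 summits 324 and 328 bp, further into the gene. When only start sites were scored, in place of both gene ends, FGFR1 was at 14 of 31 members against 29.5% of other marked genes, and FOXA1 at 14 of 31 against 38.9%.

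**Figure D4:**
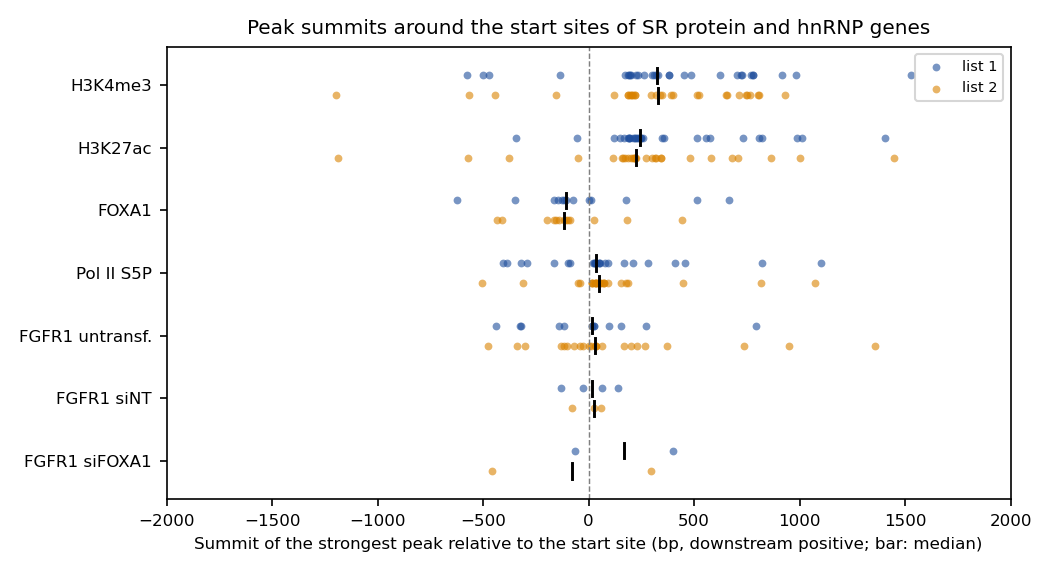
Position of the summit of the strongest peak relative to the start site (bp, downstream positive) for members with a summit within 2000 bp, by target and list, with the median as a black bar. The medians of FGFR1 and Pol II S5P of untransfected cells lie just downstream of 0, those of FOXA1 upstream, and those of the histone marks further downstream.

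FOXA1 was found at 12 of the 16 members with FGFR1, against 58.0% of other marked genes with FGFR1, and the strongest FOXA1 peak lay at the end away from the start in a few of them. HNRNPL had the highest FOXA1 enrichment of the members, 30.5 and 25.9, 804 and 791 bp beyond its 3′ end. At the start site of HNRNPL FOXA1 had no peak in list 1 and 4.69 in list 2. HNRNPUL1, a relative of SAF-A, had 23.4 and 25.1 at the end away from its start, where the gene AXL also has an end within 1 kb, and 7.30 and 7.69 at its start site. SRSF3 had 21.3 and 15.2, with summits 626 and 163 bp upstream of its start site, and HNRNPA1 had 17.7 and 14.4, 380 and 388 bp from its lower listed end. HNRNPF had 13.8 and 14.2 with summits 10 and 27 bp downstream of the start site. At HNRNPAB, the leading FGFR1 member, FOXA1 was low (3.76 and 4.12), and in list 1 it lay at the other end of the gene. SRSF1, SRSF7, HNRNPLL and HNRNPDL carried FGFR1 and had no FOXA1 peak in either list.

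In transfected cells few members had FGFR1 peaks. The siNT lists scored 5 and 3 members (11.1% and 12.7% of other marked genes) and the siFOXA1 lists 2 and 3 (6.18% and 5.11%). FGFR1 was in both siNT lists at 3 of 33 marked members (7.60% of other marked genes), HNRNPAB, SRSF3 and SRSF1. It was in both siFOXA1 lists at 1 of 33 (3.27%), HNRNPA0. These shares are near those of the other genes. Peaks of transfected cells were called over a lower background (2.11 to 2.2 fragments per position, against 3.40 and 3.5 in untransfected FGFR1 lists). The siNT lists held 6007 and 6594 peaks and untransfected list 1 held 5341. Members scored in both had a lower enrichment after siNT. The part of depth in the lower counts and enrichments was not tested.

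HNRNPAB was the strongest member in both siNT lists, with FGFR1 at 7.22 and 6.89, and had 4.18 in siFOXA1 list 1 and no peak in siFOXA1 list 2. Its siNT peaks rested on 22 and 21 fragments and the siFOXA1 peak on 12, where the lowest peaks of these lists had 10. HNRNPA0 had 4.39 in siNT list 1, no peak in siNT list 2, and 4.18 and 4.69 in the siFOXA1 lists. HNRNPA2B1 had 4.71 in siNT list 1 alone. In siFOXA1 list 2 alone, HNRNPK had 4.38, and HNRNPH1, a binder of G tracts, had 5.32 at the end of the gene away from its start site, where its Pol II S5P peaks of 7.14 and 6.11 lay as well.

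SRSF3 and SRSF1 were the 2 of 33 marked members with FGFR1 in both siNT lists and no peak with siFOXA1, which held for 2.55% of other marked genes. SRSF3 had 4.08 and 5.01 in the siNT lists, from 12 and 15 fragments, at the start site in both. SRSF1 had 4.39 and 5.01, from 13 and 15 fragments, but the first peak lay beyond its 3′ end and the second at its start site, so no end of SRSF1 was scored in both lists. SRSF3 carried strong FOXA1 in untransfected cells, and SRSF1 had no FOXA1 peak at either end. No marked member gained FGFR1, in both siFOXA1 lists and neither siNT list, against 0.0529% of other marked genes. None of the members lay in any of the 31 windows of 1 Mb that were crowded with FGFR1 peaks of transfected cells (over 10 times the mean). Other marked genes in these windows were not counted, so this is not a trait particular to the members.

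The number of members scored did not differ beyond the spread between lists. It was 4.0 ± 1.41 (SD, n = 2) after siNT and 2.5 ± 0.707 (SD, n = 2) after siFOXA1, a difference of -1.5 (two-sided exact permutation p = 0.667, where 4 lists cannot give a p under 0.33). Both conditions had a list with 3 members, so the groups overlapped. With windows of 3 kb in place of 1 kb they did not, with 7 and 6 members after siNT and 3 and 4 after siFOXA1, a difference of -3 (two-sided exact permutation p = 0.33, the smallest possible). The ratio of the means was 0.625, beside a ratio of 0.745 for all FGFR1 peaks (4694 against 6300.5 a list). When the 4 lists were reduced to 4332 peaks each, those with the authors' lowest p-values, siNT scored 2 and 3 members and siFOXA1 2 and 3, a difference of 0.

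**Figure D5:**
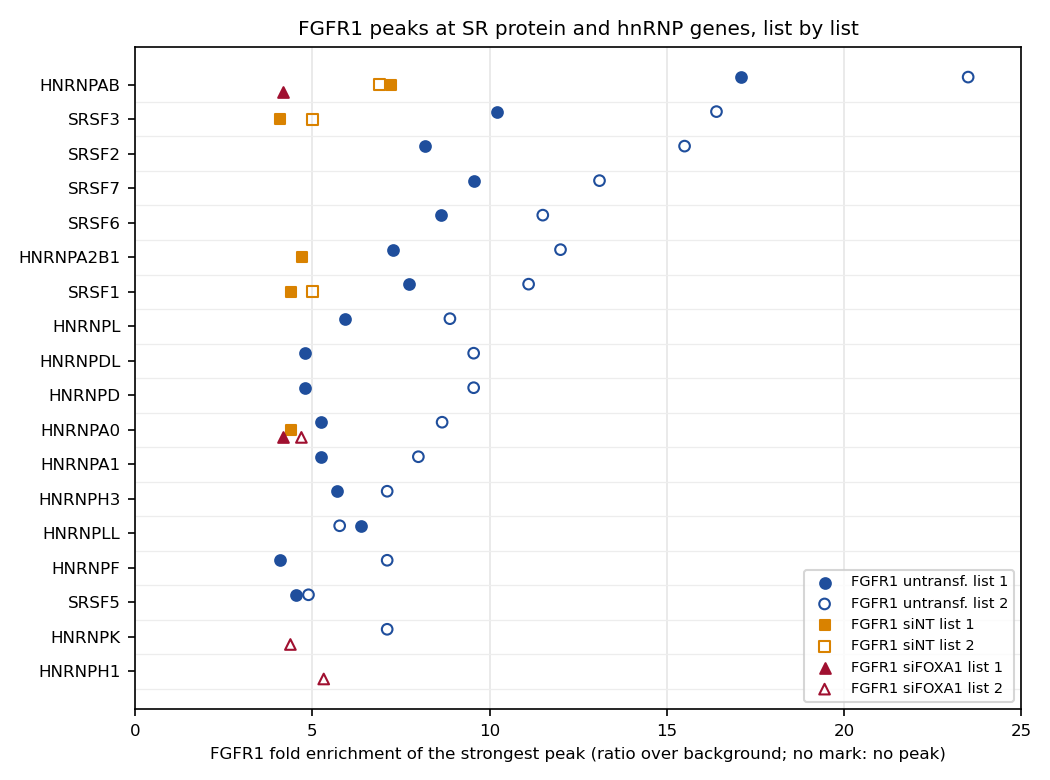
FGFR1 fold enrichment (x, ratio over background, from 0) of the strongest peak in each of the 6 FGFR1 lists for the 16 members with FGFR1 in both untransfected lists, and for HNRNPK and HNRNPH1, with filled marks for list 1 and open marks for list 2. A missing mark means no peak. Untransfected list 2 exceeds list 1 except at HNRNPLL, and marks of transfected cells lie between 4.08 and 7.22.

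Other genes of the splicing pathway, from lists that hold no member, carried FGFR1 at shares above the 29.7% of other marked genes. Among other genes with H3K4me3 and Pol II S5P the share was 47.2%. The hnRNP list was above that share and the SR-related list just below it. The core spliceosome share includes genes without Pol II S5P, so it cannot be set against the 47.2%. FGFR1 was in both untransfected lists at 7 of 10 genes of hnRNP proteins with other symbols (70.0%), among them PCBP2, a binder of cytidine runs (8.42 and 11.1), and PTBP2, a binder of pyrimidine tracts (7.28 and 7.55). It was at 6 of 13 marked SR-related factors and SR kinases (46.2%), led by the kinase genes CLK4 (8.42 and 13.5) and CLK2 (7.05 and 11.8) and by U2AF2, which binds the polypyrimidine tract (6.6 and 32.4). The lists of U2AF2 lay far apart, beside a median ratio of list 2 to list 1 of 1.41 at other marked genes with FGFR1. Of 28 core spliceosome genes FGFR1 was at 12 (42.9%), led by PRPF31 (9.33 and 13.8), SF3B2 (7.96 and 12.2) and SF3B4 (5.91 and 8.22). Pol II S5P was at 10 of 10, 13 of 13 and 23 of 28 of these genes, against 58.2% of other marked genes.

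As a check of the cells, H3K4me3 was in both lists at 6 of 7 luminal breast markers, all but ESR1, whose annotated ends had none. FGFR1 was at 4 of those 6, against 29.7% of other marked genes. H3K4me3 was at 0 of 4 basal markers (KRT5, KRT14, KRT17 and TP63) and at 2 of 6 fibroblast, immune or endothelial markers. FGFR1 was at neither of those 2. Peak numbers on the chromosomes used were 5341 and 13135 for untransfected FGFR1, and 4332 to 6594 in transfected cells.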

How the data were processed

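Peak lists of 14 ChIP-seq libraries were used as deposited; the 7 inputs were not used. The submitters' processing notes name hg38, Bowtie2, SAMtools, Picard and MACS2, without versions. Per the file headers and layout, each deposited row is a peak of a single library, with the authors' fold enrichment (a ratio), summit, and p-value and q-value as -log10. The fold enrichments lay on a grid from which background and summit fragments were recovered, except for Pol II S5P; total reads are unknown. Labels were followed where peak names inside a list differ from them (the numbering of the untransfected FGFR1 lists, and FOXA2 in place of FOXA1).

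Gene ends came from RefSeq (GRCh38.p14); exons and introns were not used. Start sites came from the promoter table, which holds 34 of the 38 members. The members and gene lists were chosen with earlier results of these data known. Values by list are given for members with FGFR1 in both untransfected lists, members lost or gained with siFOXA1, and marked members with Pol II S5P and no FGFR1 peak; the other members are given by counts or in a clause chosen after their values were seen. At most the strongest 3 genes by FGFR1 percentile are named from each gene list, and 1 gene is not reported here. No test was made of the list of members; siNT and siFOXA1 were compared by an exact permutation test over the 4 lists. Scoring was tested on simulated data. Python 3.11.15, pandas 2.3.3, numpy 2.4.6 and SciPy 1.17.1 were used. Alternatives were windows of 500 bp and 3 kb, a -log10 q of at least 5, summits, the same gene end in both lists, start sites, each list left out, lists of equal length and a pairing by replicate number.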

Additional observations from a re-analysis of the deposited data

How the results depend on the processing

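The counts of members with H3K4me3, H3K27ac, Pol II S5P, FOXA1 and untransfected FGFR1 stayed within 1.5 times the reported ones in every setting tried, except that untransfected FGFR1 gave 26 without replicate 1. Without either replicate in turn the counts were 16 to 26 for untransfected FGFR1, 28 to 29 for Pol II S5P, 19 to 20 for FOXA1, 32 to 33 for H3K27ac and 33 to 33 for H3K4me3. The small counts moved: FGFR1 in siNT was 5 with windows of 3 kb and 1 at a -log10 q of at least 5, and in siFOXA1 2 and 0, and without either replicate siNT gave 3 to 5 members and siFOXA1 2 to 3. The siFOXA1 minus siNT difference was 0 with lists of equal length, -3 with windows of 3 kb, and -2.5 to -0.5 with each list left out. With the replicate number as a pairing (replicate block) it was -1.5 (exact p = 1, two-sided); the numbers are not known to pair cultures. The lowest peaks of the transfected lists had 10 fragments, and apart from HNRNPAB in siNT (22 and 21) the members' peaks there had 12 to 16. No FGFR1-depleted cells or inputs were used, so signal at promoters that is not FGFR1 was not tested.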
